A study of Mus musculus with 2 samples.

Results

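The genes described here code for integrins, for laminin chains and for the proteins that tie basement membranes together or to cells. They were chosen by name: 17 integrin α subunits, 8 integrin β subunits, 10 laminin chains, the 2 nidogens and dystroglycan, 38 genes of the 43346 Ensembl genes measured. All 38 were present in both the gene tables and the transcript tables.

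Laminins are secreted trimers of an α, a β and a γ chain, and they form a sheet under epithelia and around muscle, vessels, nerves and fat cells. Nidogens bridge this laminin sheet to the collagen IV network. Cells hold on to it through integrins, which are dimers of an α and a β subunit at the cell surface, and through dystroglycan, which binds laminin by sugar chains on its α part and dystrophin by its β part. In the gut, such contacts join the epithelium to the mesenchyme and surround the muscle layers.

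The samples were intestine of mouse embryos at E15.5 (embryonic day 15.5), strain B6NCrl, of mixed sex. There was 1 group with 2 total RNA libraries, from a pool of 78 embryos (replicate 1) and a pool of 62 embryos (replicate 2), numbered as biological replicates in the labels. The labels give no transgene, mutation or treatment. Since the group has no counterpart, no contrast between conditions could be tested, and no p-value is given: each value stands for both pools, and an SD is over n = 2.

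The libraries held 34406872 and 40669822 estimated read counts. Levels are in TPM, a length-corrected share of the RNA. A gene counts as detected where neither library was under 1 TPM. Marker lists for the cells that a whole intestine can hold were all measured. All markers of epithelium (led by Cldn7 and Krt8), smooth muscle (Acta2, Actg2), mesenchyme (Col3a1, Col1a1), endothelium (Egfl7, Plvap), macrophages (C1qb, Tyrobp), enteric neurons and glia (Tubb3, Elavl4), mesothelium (Upk3b, Msln) and interstitial cells of Cajal (Etv1, Ano1) were detected. Of the lymphocyte markers, Il7r, Cd3e, Cd3g and Cd79a lay under 1 TPM in each library and Ptprc was detected. Lists for cells outside the gut wall were not all at 0, and the exocrine pancreas list (Ctrb1, Amy2a5) differed most in summed TPM, at 5368 TPM in replicate 1 and 1866 TPM in replicate 2. The kidney, gonad and adrenal list (led by Hsd3b1 and Nphs1, with Pax8, Nr5a1, Six2 and Pax2 below 1) summed to 18.1 and 3.07 TPM, a larger difference as a ratio. The skeletal and cardiac muscle list (Myl7, Acta1, with Myog, Myod1 and Myh6 below 1) summed to 69.5 and 90.9 TPM, and the stratified epithelium list (Krt14, Krt15, with Krt5 and Trp63 below 1) to 11.5 and 14.0 TPM. Neutrophil markers (S100a8, S100a9, with Ly6g below 1) summed to 88.2 and 53.99 TPM. In bulk tissue, fewer cells of a type and less RNA per cell cannot be told apart.

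Of the 38 genes, 33 were detected, against 34.6% of all genes and 62.7% of protein-coding genes. The median over the 38 genes was 6.37 TPM in replicate 1 and 6.35 TPM in replicate 2, and over all protein-coding genes it was 5.04 TPM in both. Among detected genes the order turned: the 33 members had medians of 10.04 and 10.18 TPM, and the 13474 detected protein-coding genes 17.71 and 17.77 TPM. The family is therefore widely present at moderate levels, with 14 members above a mean of 20 TPM and 13 between 1 and 5 TPM. The spread between pools was small beside the spread between genes, with a median SD of 5.58% of a member's mean.

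**Figure D1:**
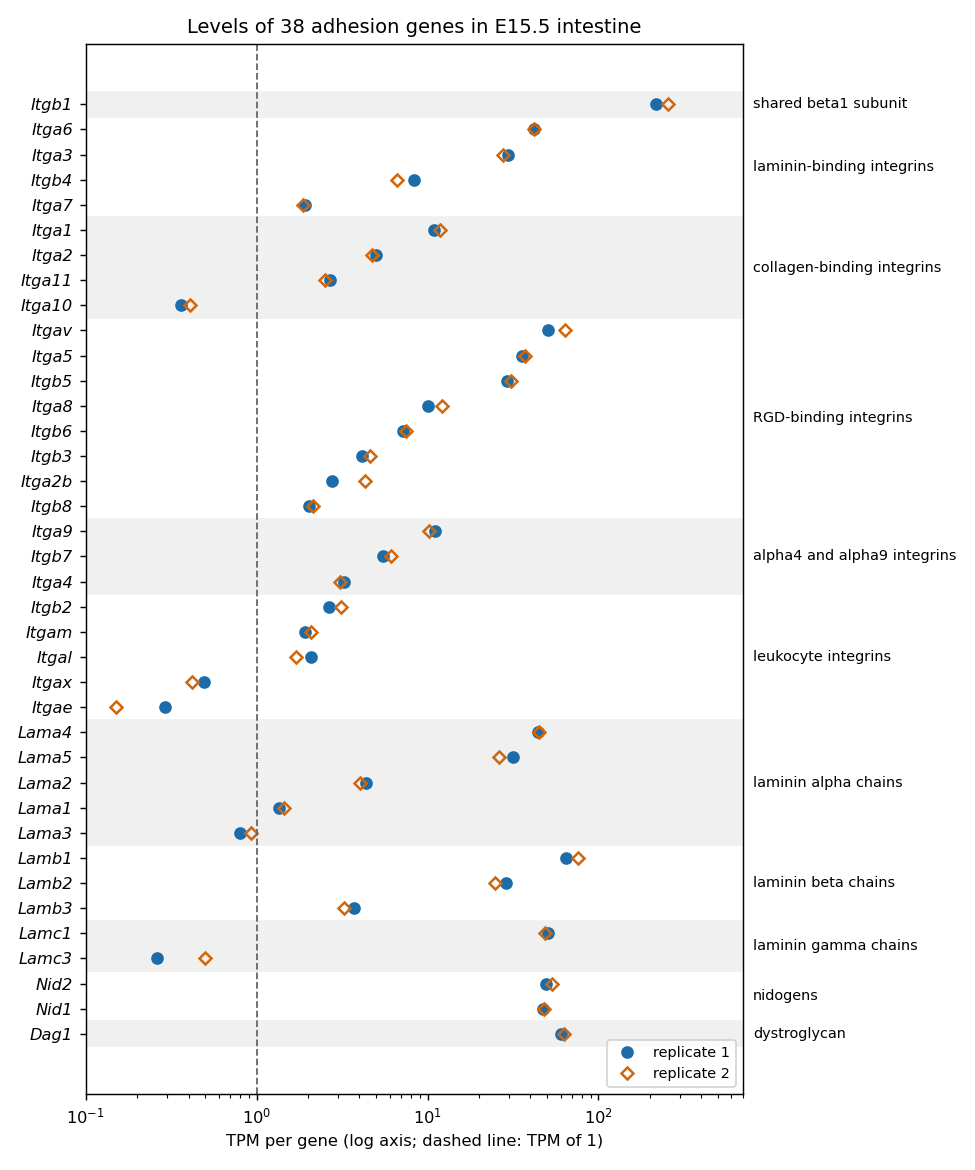
TPM of each of the 38 genes in replicate 1 (filled circles) and replicate 2 (open diamonds) on a log axis, grouped by the role of the protein. Itgb1 stands above all others at 217 and 255 TPM, and the 5 genes not detected lie at or left of the dashed line at a TPM of 1.

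Among the laminin α chains, which carry the domains that bind cell-surface receptors, Lama4 and Lama5 made up most of the RNA. Lama4, the α4 chain typical of mesenchymal and vascular laminins, stood at 44.5 and 45.02 TPM. Lama5, the α5 chain of mature epithelial and vascular basement membranes, stood at 31.5 and 26.1 TPM. The ranges of these 2 genes did not overlap, with Lama4 higher in both pools.

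The other α chains were far lower. Lama2, the α2 chain of muscle and nerve, stood at 4.38 and 4.03 TPM, and Lama1, the α1 chain of early embryonic basement membranes, at 1.36 and 1.45 TPM. Lama3, the α3 chain of epithelial adhesion structures, stayed below the detection limit at 0.80 and 0.93 TPM. As shares of summed α chain TPM, Lama4 held 53.9% and 58.1%, Lama5 38.2% and 33.6%, Lama2 5.30% and 5.20%, Lama1 1.65% and 1.87% and Lama3 0.968% and 1.20%.

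The β chains were led by Lamb1, the β1 chain found in most laminins, at 64.6 and 75.9 TPM. Lamb2, the β2 chain known from synapses, kidney and vessels, stood at 29.0 and 24.7 TPM. Lamb3, which pairs with the α3 chain, stood at 3.70 and 3.25 TPM. The 3 genes kept this order in both pools without overlap, with Lamb1 at 66.4% and 73.1% of summed β chain TPM.

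Of the γ chains on the list, Lamc1, the γ1 chain shared by most laminins, held nearly everything, at 50.6 and 48.7 TPM. Lamc3, the γ3 chain, was not detected, at 0.26 and 0.50 TPM. The γ sum on this list is thus in effect the level of Lamc1, with shares of 99.5% and 99.0%.

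Summed over genes, the α, β and γ chains came to 82.6, 97.2 and 50.9 TPM in replicate 1 and to 77.5, 103.9 and 49.2 TPM in replicate 2. The ratio of β to α chains was 1.26 ± 0.12 (SD, n = 2) and of γ to α chains 0.625 ± 0.014 (SD, n = 2). A trimer holds 1 chain of each kind, but RNA was measured here, not protein. These ratios also depended on which transcripts were counted, as shown next.

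Gene-level TPM adds up every transcript that the annotation lists, including short fragments, non-coding entries and entries whose coding sequence is incomplete. A read that lies in a short entry weighs more in TPM than a read over a long one. A separate level was therefore taken over complete coding transcripts only. On this scale 8 members, 7 of them among the 33 detected, had less than 50% of their TPM in both libraries, against 10.3% of all detected protein-coding genes. At the other end, 18 detected members kept over 80% in both libraries. The matching share of all detected protein-coding genes was not computed. The median percent of TPM on complete coding transcripts was 95.2% and 93.6% over detected members. Over all detected protein-coding genes it was higher, at 97.1% and 97.3%.

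Lama5 (chr2:180176373-180225859, minus strand, GRCm38) was among the most affected. Its 79-exon coding transcript Lama5-201 held 24.1% and 26.2% of the gene's TPM, or 7.60 and 6.84 TPM, yet 88.6% and 89.7% of its estimated read counts. The rest lay on short entries at the 3′ end, Lama5-202 (451 bases), Lama5-203 (734 bases) and Lama5-204 (478 bases), whose bases are all also exon bases of Lama5-201. On the complete coding scale Lama5 moved from rank 12 to rank 18 among the members, and Lama4 stood at 27.6 and 29.1 TPM. The share of Lama5 in the α chains was then 19.6% and 17.1%, and that of Lama4 71.1% and 72.7%.

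Lamc1 had a similar split. The 28-exon Lamc1-201 held 51.7% and 54.05% of its TPM, and Lamc1-204, a 3-exon entry of 1447 bases that lies wholly within exons of Lamc1-201, held 47.4% and 44.7%. In Lama4, the 2-exon entry Lama4-207 (511 bases) held 32.6% and 29.6%. In Lama2, Lama2-206 (643 bases) and Lama2-204 (1687 bases) together outweighed the 65-exon Lama2-201, which held 31.1% and 42.5% against 30.1% and 35.0% for Lama2-206 and 29.5% and 17.8% for Lama2-204. Lamb2-201 held 63.0% and 71.2% beside a 578-base entry Lamb2-205 at 23.6% and 14.3%. Lama5, Lamc1, Lama4, Lama2 and Lamb2 thus carried a large share of TPM on partial entries, while Lama1 has a single transcript in the tables and Lamb3 kept 99.7% and 93.9% of its TPM on complete ones.

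**Figure D2:**
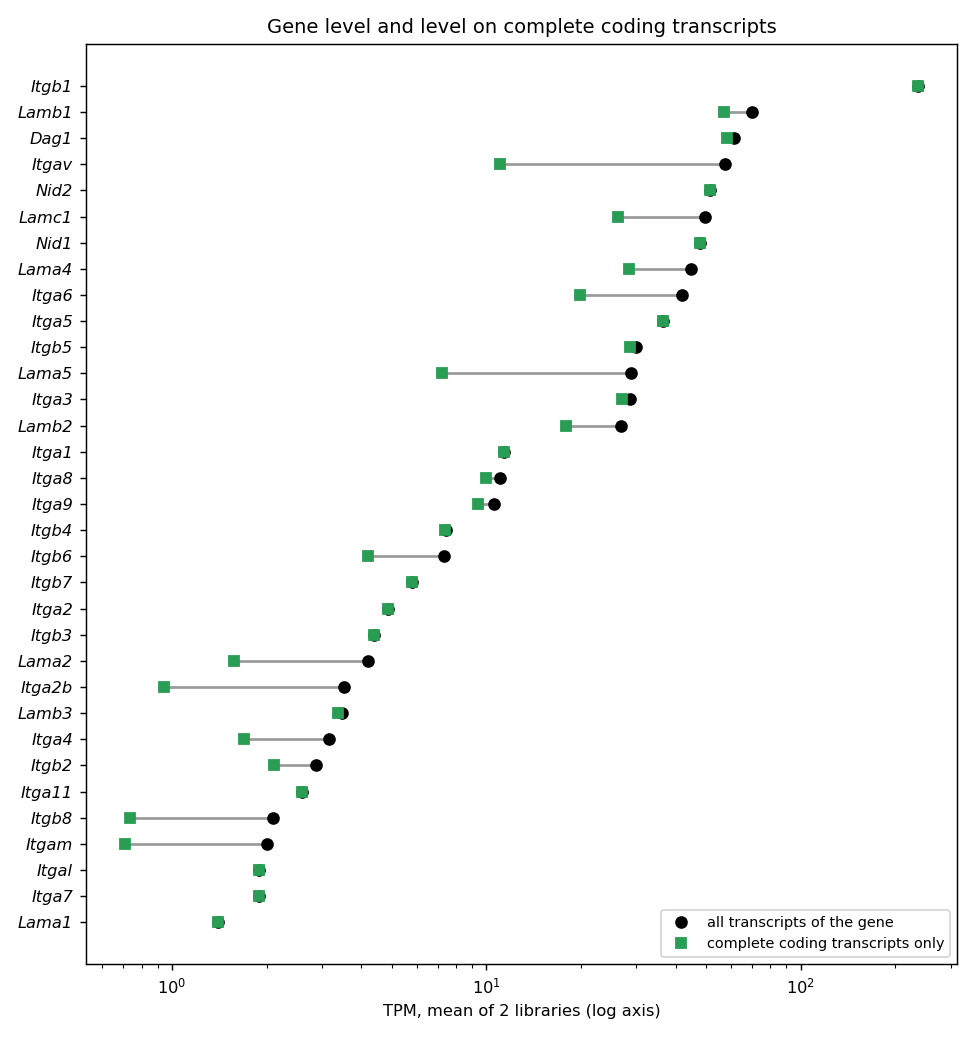
Mean TPM over both libraries (log axis) of the 33 detected genes, over all transcripts of a gene (circles) and over complete coding transcripts only (squares), joined by a line. Itgav falls from 57.6 to 11.1 TPM and Lama5 from 28.8 to 7.22 TPM, while Itgb1, Nid1, Nid2 and Itga5 hardly move.

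On complete coding transcripts the ratio of β to α laminin chains was 1.99 in replicate 1 and 1.98 in replicate 2, and that of γ to α chains 0.681 and 0.668. Lamb1 held 71.7% and 73.9% of the β chains on this scale. The leading chains were the same on both scales: Lama4 among α, Lamb1 among β and Lamc1 among γ chains. Lama3 gave mainly its short form, with Lama3-202 (38 exons) at 86.0% and 85.7% of the gene's TPM and the 75-exon Lama3-201 at 14.0% and 14.3%. The gene had only 118 and 160 counts, so these shares rest on few reads.

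The nidogens were near Lama4 and Lamc1 on gene-level TPM. Nid1, nidogen-1, stood at 47.3 and 48.3 TPM, and Nid2, nidogen-2, at 49.4 and 53.5 TPM. Nid2 was the higher in both pools, and the ranges did not overlap. Each has a single complete transcript in the tables, so neither level depends on the choice of transcripts, and on the complete coding scale both lay above Lama4 (27.6 and 29.1 TPM) and Lamc1 (26.2 and 26.3 TPM). Nid2 shares 437 exon bases (8.45% of its own) with Rtraf on the opposite strand, a gene at 165 and 185 TPM. Nothing used here states the strand setting of the counting, and the part of Rtraf reads in the Nid2 value was not tested.

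Among the receptors, Itgb1 (chr8:128685654-128733200, plus strand, GRCm38) stood apart. It codes for the β1 subunit, which pairs with more α subunits than any other β subunit. Its level was 217 TPM in replicate 1 and 255 TPM in replicate 2, or 236 ± 27.3 TPM (SD, n = 2), above every other member in both pools. Itgb1 made up 78.6% and 80.7% of the summed β subunit TPM.

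The 12 α subunits on the list that pair with β1 summed to 203 and 218 TPM, so that Itgb1 stood at 1.07 and 1.17 times their sum. Over complete coding transcripts the ratio was 1.62 and 1.82, because the α subunits lost more partial entries than Itgb1 did. Summed over all genes on the list, α subunits came to 211 and 226 TPM and β subunits to 276 and 316 TPM, a ratio of β to α of 1.35 ± 0.064 (SD, n = 2), or 2.05 on complete transcripts.

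Of the laminin-binding integrins, Itga6, the α6 subunit, stood at 41.8 and 42.0 TPM. Itga3, the α3 subunit, stood at 29.6 and 27.5 TPM. Itgb4, the β4 subunit that joins α6 in hemidesmosomes and binds keratin-linked plectin, stood at 8.31 and 6.59 TPM. Itga7, the α7 subunit of muscle cells, stood at 1.91 and 1.86 TPM. The 4 genes did not overlap in either pool, and Itgb4 was lower than the α6 subunit it pairs with. The gap was smaller on complete coding transcripts, where Itga6 stood at 19.2 and 20.7 TPM and Itgb4 at 8.18 and 6.60 TPM.

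The α6 and α3 subunits each have A and B forms, which differ only in the cytoplasmic tail: the A form includes an exon that ends the protein with one tail, and the B form skips it and reads into the next exon. The coding sequences of the tails after the shared part are shown here because they are what the transcript shares distinguish. They run 5′ to 3′ on the coding strand, from the GENCODE M21 transcript sequences (GRCm38, the same assembly as mm10), with the stop codon in capitals. The α6 tails are at chr2:71853534-71853641 for A and chr2:71855854-71856015 for B (plus strand). The α3 tails are at chr11:95046480-95046590 for A and chr11:95045608-95045763 for B (minus strand).
Itga6 A tail: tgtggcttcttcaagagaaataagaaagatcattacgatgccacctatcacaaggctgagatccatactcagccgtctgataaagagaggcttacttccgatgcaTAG
Itga3 A tail: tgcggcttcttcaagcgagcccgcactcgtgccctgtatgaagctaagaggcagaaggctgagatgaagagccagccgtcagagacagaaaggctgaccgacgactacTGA
Itga6 B tail: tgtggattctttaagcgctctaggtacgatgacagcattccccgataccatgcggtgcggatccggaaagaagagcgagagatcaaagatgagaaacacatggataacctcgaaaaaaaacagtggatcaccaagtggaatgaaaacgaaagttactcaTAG
Itga3 B tail: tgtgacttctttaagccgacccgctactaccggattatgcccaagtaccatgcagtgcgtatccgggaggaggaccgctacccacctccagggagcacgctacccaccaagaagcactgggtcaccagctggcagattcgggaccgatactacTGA
The A tails of α6 and α3 were identical at 74 of 123 aligned columns, gaps included, and the B tails at 106 of 173. The A and B tails of α6 were identical at 80 of 171 columns and those of α3 at 86 of 160, but the A and B tails differ in length, so these counts do not rank the pairs by likeness.

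Itga3 transcripts were mostly of the A form. Itga3-201 (A) held 89.5% and 82.3% of the gene's TPM and Itga3-203 (B) 3.12% and 10.8%. Of the TPM on transcripts that could be assigned, 96.7% and 88.5% included the A exon. The A form led in both pools. The B form rested on 102 and 380 counts, and by the deposited posterior mean its percent was 6.64 and 12.2, so the gap between pools depended on the estimate.

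Itga6 was less clear. Among complete coding transcripts, the A form (Itga6-201, 17.07 and 16.39 TPM) made up 89.0% and 79.1%, and the B form (Itga6-202) stood at 2.10 and 4.32 TPM. However, a non-coding entry of 2721 bases, Itga6-203, held 40.3% and 37.4% of the gene's TPM, and its 3 exons also skip the A exon. With every entry that covers the site counted, the share that included the A exon was 48.6% and 46.2%. The A form led among complete transcripts in both pools, and the A-to-B balance of the gene depended on what Itga6-203 stands for, which was not tested.

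The β1 subunit also has alternative tails: β1A, found in most cells, and β1D, known from striated muscle. They are shown because the D exon was looked for in these libraries. β1A is at chr8:128732023-128732088 and β1D at chr8:128726983-128727057 (both plus strand, GRCm38, stop codon in capitals).
Itgb1 A tail: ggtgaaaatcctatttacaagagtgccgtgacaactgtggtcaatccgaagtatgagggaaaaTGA
Itgb1 D tail: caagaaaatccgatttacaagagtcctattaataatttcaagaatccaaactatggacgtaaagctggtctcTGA
The tails were identical at 45 of 75 aligned positions (60.0%). Itgb1-201, the β1A transcript, held 99.7% and 99.8% of the gene's TPM. Itgb1-204, the incomplete 711-base entry that holds the D exon, was listed at 0 counts in both libraries. Of its 711 bases, 630 are also exon bases of Itgb1-201, so only reads that touch the remaining stretch tell the forms apart. The limit of 3 counts is 0.0156% of the gene's counts in replicate 1 and 0.0113% in replicate 2, for counting error alone, and it is no limit on the share of β1D transcripts. No count was placed on the β1D entry at this depth. Itga7 has only 1 transcript in the tables, so its forms could not be compared.

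Among the other β subunits, Itgb4 has several coding entries, with Itgb4-202 at 73.0% and 68.6%. The split over the other coding entries differed between pools: Itgb4-204 was listed at 18.6% and then 0%, and Itgb4-201 at 2.11% and then 23.4%. By the deposited posterior mean, Itgb4-204 held 13.0% and 3.48% and Itgb4-201 3.64% and 15.1%. The size of these gaps thus depended on the estimate. The leading form was the same in both pools and the minor ones were not.

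Collagen-binding integrins, which share a collagen-binding domain on their α subunits and pair with β1, were present at lower levels. Itga1, the α1 subunit of smooth muscle and mesenchyme, stood at 10.9 and 11.8 TPM. Itga2, the α2 subunit of epithelia and platelets, stood at 5.01 and 4.75 TPM, and Itga11, the α11 subunit of fibroblasts, at 2.69 and 2.50 TPM. Itga10, the α10 subunit of cartilage, was not detected, at 0.36 and 0.41 TPM. The order was Itga1, Itga2, Itga11, Itga10 in both pools without overlap. Itga1 and Itga2 lie next to each other on chromosome 13, 20995 bases apart on the same strand, and each has a single transcript in the tables.

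RGD-binding integrins, which recognise a short peptide motif in fibronectin, vitronectin and other matrix proteins, included 3 genes above 25 TPM in both pools. Itgav, the αV subunit that pairs with 5 β subunits, stood at 51.0 and 64.1 TPM. Itga5, the α5 subunit of the main fibronectin receptor, stood at 35.9 and 37.2 TPM, and Itgb5, the β5 subunit of a vitronectin receptor, at 29.1 and 30.9 TPM. These 3 genes did not overlap.

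The Itgav value (chr2:83724397-83806916, plus strand, GRCm38) rested mainly on a short entry at its 3′ end. Itgav-205, 463 bases in 3 exons that all lie within exons of the full Itgav-202, held 73.5% and 75.3% of the gene's TPM. Complete coding transcripts stood at 10.1 and 12.02 TPM, 19.8% and 18.7% of TPM, yet 79.5% and 78.7% of counts. On that scale Itgav moved from rank 4 to rank 14, below Itga5, which has a single complete transcript and stayed at 35.9 and 37.2 TPM. Which of Itgav and Itga5 was higher therefore depended on the transcripts counted.

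**Figure D3:**
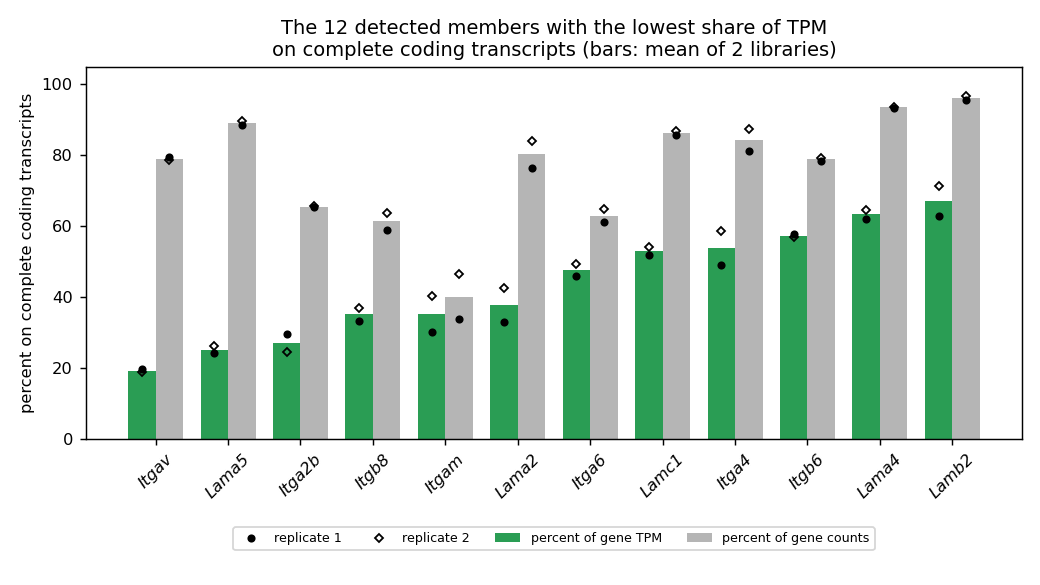
Percent of a gene's TPM (green bars) and of its estimated counts (grey bars) that fell on complete coding transcripts, for the 12 detected genes with the lowest percent of TPM; bars are means of both libraries and symbols the libraries. In every one the percent of counts is above the percent of TPM, and the gap is widest for Lama5 (88.6% and 89.7% of counts, 24.1% and 26.2% of TPM).

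The remaining RGD-binding genes were lower. Itga8, the α8 subunit of mesenchyme and smooth muscle, stood at 10.0 and 12.1 TPM. Itgb6, the β6 subunit of epithelia that activates TGF-β with αV, stood at 7.23 and 7.47 TPM. Itgb3, the β3 subunit of platelets and vessels, stood at 4.16 and 4.63 TPM. Itgb8, the β8 subunit that also activates TGF-β, stood at 2.04 and 2.14 TPM.

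Itga2b, the αIIb subunit of the platelet fibrinogen receptor, stood at 2.76 and 4.30 TPM, which overlapped the range of Itgb3. Its complete coding transcript Itga2b-201 held 29.7% and 24.7% of TPM, and a non-coding entry of 623 bases, Itga2b-207, held 42.9% and 56.4%. The platelet marker list (Pf4, Gp1bb, Ppbp, Gp9, with Gp1ba and Gp6 below 1 in both) summed to 48.2 and 47.8 TPM, of which Pf4 held 41.5 and 41.4 TPM. The gene itself had 100 and 151 counts. Of these RGD-binding genes, Itgb8 also kept under 50% of TPM on complete transcripts, at 33.3% and 36.9%, and Itgb6 kept 57.7% and 57.0%.

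The next class holds the α4 and α9 subunits and β7, which pairs with α4. Itga9, the α9 subunit of muscle and lymphatic endothelium, stood at 11.0 and 10.2 TPM. Itga4, the α4 subunit of lymphocytes and neural crest cells, stood at 3.23 and 3.09 TPM. Itgb7, the β7 subunit of gut-homing lymphocytes, stood at 5.51 and 6.11 TPM. Itgb7 was the higher of the 2 partners of α4β7, while the lymphocyte markers Il7r, Cd3e, Cd3g and Cd79a were below 1 TPM and Ptprc, which all white blood cells express, stood at 4.54 and 5.25 TPM. The minor transcripts of Itga9 differed between pools: Itga9-203 held 19.6% in replicate 1 and was listed at 0 in replicate 2, and Itga9-202 was listed at 0 and held 13.4%. Itga4 shares 1124 exon bases (8.04% of its own) with Cerkl on the opposite strand, a gene at 1.31 and 1.28 TPM.

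Leukocyte integrins were the lowest class. Itgb2, the β2 subunit that pairs with αL, αM and αX but not with αE, stood at 2.64 and 3.11 TPM. Itgal, the αL subunit of LFA-1, stood at 2.08 and 1.70 TPM and Itgam, the αM subunit of macrophages and granulocytes, at 1.92 and 2.09 TPM, with overlapping ranges. Itgax, the αX subunit of dendritic cells and macrophages, and Itgae, the αE subunit of intraepithelial lymphocytes, were not detected, at 0.49 and 0.42 TPM and at 0.29 and 0.15 TPM. The macrophage marker list (C1qb at 57.2 and 56.3 TPM) was well above them, with a sum of 195 and 176 TPM.

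The Itgam value has a limit of annotation. In GENCODE M21, a second coding gene on the same strand, Gm49368, covers 68.7% of its exon bases. Gm49368 has no gene entry of its own in the tables. Its transcripts Gm49368-201 and Gm49368-202 are listed there under Itgam, so the Itgam value includes what was assigned to them. Complete coding transcripts held 30.2% and 40.2% of the Itgam TPM, and an entry with no record in GENCODE M21 held 64.1% and 48.1%. Itgal also spread over 3 coding entries whose order changed between pools, with Itgal-203 at 42.8% and 26.0% and Itgal-201 at 32.6% and 63.4%. For these genes the split between transcripts differed between pools. The sums over transcripts stood at 1.92 and 2.09 TPM for Itgam and at 2.08 and 1.70 TPM for Itgal.

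Dystroglycan, coded by Dag1 (chr9:108204634-108263958, minus strand, GRCm38), was at rank 3 by mean gene TPM, at 60.4 and 62.7 TPM, with a range that overlapped that of Itgav. Complete coding transcripts held 95.5% and 93.6% of it, so the value hardly moved with the choice of transcripts. The TPM spread over Dag1-204 (54.2% and 49.2%), Dag1-201 (24.8% on average) and Dag1-203 (15.2% and 19.7%). Of the exon bases of Dag1-201 and Dag1-203, 96.4% and 94.2% are also exon bases of Dag1-204. Their coding sequences were not compared. Dag1 and Lamb2 lie 215777 bases apart on chromosome 9, on opposite strands.

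Over the whole list, 19 of the 37 neighbouring pairs in the order of levels had overlapping library ranges, so that their order does not exceed the spread between pools. Ranks 1 and 2 (Itgb1, Lamb1) did not overlap each other. Neighbours that overlapped were, for example, Lama5 and Itga3, or Itgal and Itga7.

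**Figure D4:**
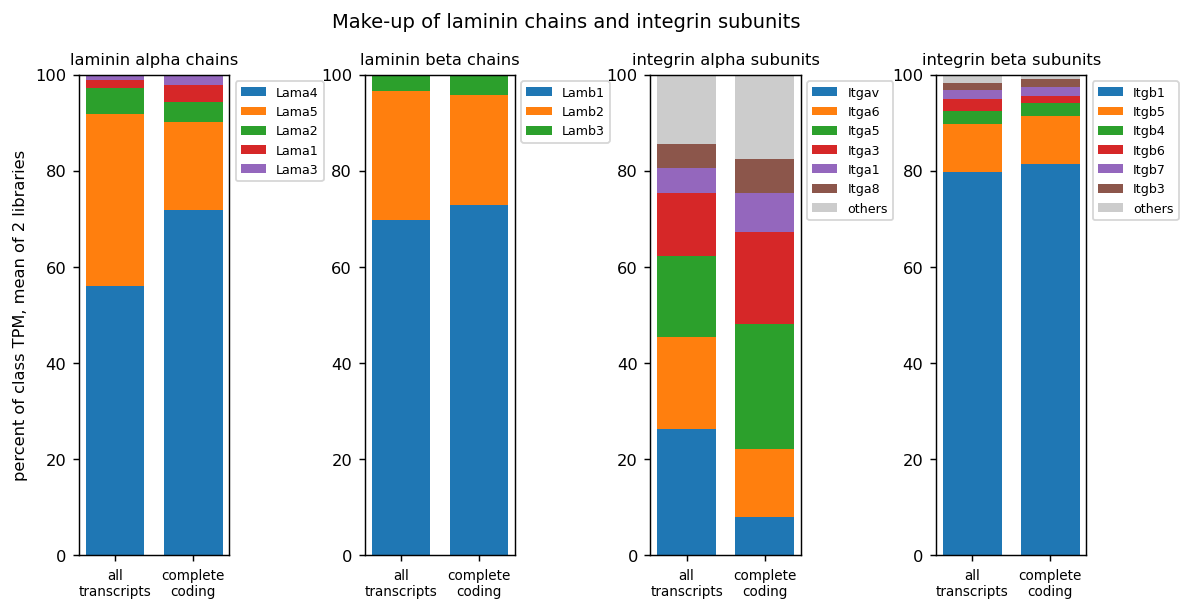
Share of each gene in the summed TPM of its class (mean of both libraries), for laminin α and β chains and integrin α and β subunits, over all transcripts (left bar) and over complete coding transcripts (right bar). Lama4, Lamb1 and Itgb1 lead their classes on both scales, while among integrin α subunits Itgav leads on the first scale and Itga5 on the second.

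The proteins that work with these genes were measured from lists fixed by function. All 27 genes of the list of integrin adaptors and focal adhesion proteins were detected, led by Actn4 at 292 and 283 TPM, the actin cross-linker α-actinin-4, Ilk at 296 and 277 TPM, integrin-linked kinase, and Flna at 262 and 229 TPM, filamin A. Of 4 hemidesmosome genes, 3 were detected: Plec (plectin) at 30.6 and 30.0 TPM, Cd151 at 18.5 and 15.8 TPM and Dst at 13.4 and 13.0 TPM. Col17a1, the hemidesmosome collagen, was below 1, at 0.65 and 0.50 TPM. The genes for plectin and CD151 were thus above Itgb4 itself.

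On the dystroglycan side, 11 of 13 genes of the dystrophin complex were detected, led by Sgce at 39.1 and 38.6 TPM, Dtnb at 20.6 and 20.95 TPM and Dmd, dystrophin, at 20.1 and 18.5 TPM. Sgca, a sarcoglycan of striated muscle, was below 1, at 0.15 and 0.07 TPM. All 12 enzymes that build the laminin-binding sugar chain of dystroglycan were detected, led by Rxylt1 at 44.5 and 45.1 TPM, Pomgnt1 at 39.9 and 38.4 TPM and B4gat1 at 32.3 and 32.9 TPM. RNA for every listed enzyme of that chain was thus detected in the tissue, where 62.7% of all protein-coding genes were.

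Of 19 other basement membrane genes, 16 were detected, led by Sparc at 1387 and 1361 TPM, Fbln1 at 152 and 162 TPM and Col4a1 at 114 and 123 TPM. Those below 1 in both libraries were Ntn4, netrin-4, at 0.39 and 0.24 TPM, and the collagen IV chains of kidney and lung, Col4a3 at 0.10 and 0.21 TPM and Col4a4 at 0.09 TPM in both. All 15 non-laminin integrin ligands were detected, led by Col1a1 at 818 and 911 TPM, Emilin1 at 160 and 156 TPM and Mfge8 at 142 and 141 TPM. All 5 other laminin receptors were detected, led by Rpsa at 705 and 618 TPM, which also codes for a ribosomal protein, Sdc4 at 105.05 and 100.92 TPM and Sdc1 at 83.4 and 88.3 TPM. These lists were chosen with earlier results of these data known, so their counts describe the tissue and support nothing by themselves.

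The pools were then compared with each other. On the log2((TPM in replicate 2 + 1)/(TPM in replicate 1 + 1)) scale, none of the 33 detected members was over 1.5-fold apart, against 4.61% of the 15978 genes with a TPM of at least 1 in either library. None was over 2-fold apart, against 2.28%. The differences ran from -0.29 for Itgb4 to 0.50 for Itga2b, with a median of 0.04 against 0.02 over all genes.

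Of the 33, 20 were higher in replicate 2, or 60.6%, against 54.3% of all genes compared. After Itga2b, the largest were Itgav at 0.33, Itga8 at 0.25, Itgb1 at 0.24 and Lamb1 at 0.23. On complete coding transcripts these stood at 0.23 for Itgav, 0.29 for Itga8, 0.24 for Itgb1 and 0.07 for Lamb1, and Itga2b at 0.18. For Lamb1 this scale leaves out an entry of 2318 bases, at 5.63 and 11.52 TPM. That entry has no record in GENCODE M21, so whether it is a complete coding transcript is not known. The lowest after Itgb4 were Lama5 at -0.26, Lamb2 at -0.22 and Itgal at -0.19. On complete coding transcripts Itgb4 stood at -0.27, Lama5 at -0.13, Lamb2 at -0.05 and Itgal at -0.19. On counts scaled with TMM factors, which lack the length correction of TPM, Lamb2 stood at -0.07. Of the 33, 29 kept their sign under all 7 scalings tried, and Lamc1, Itga9, Lama2 and Itga4 did not. Several of these scalings start from the same TPM. The same share over all genes was not computed, so the count shows no trait of the members.

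**Figure D5:**
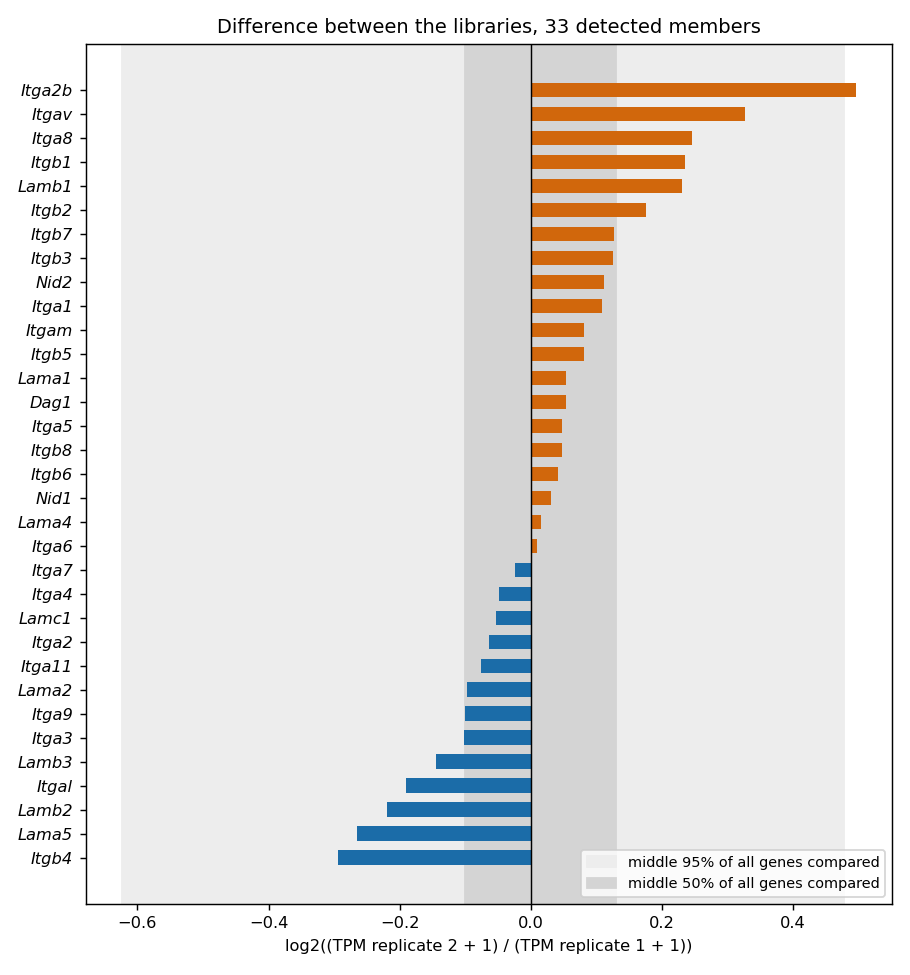
Log2 ratio of TPM + 1, replicate 2 over replicate 1, for the 33 detected genes (orange bars higher in replicate 2, blue bars lower), with grey bands for the middle 95% and middle 50% of all genes compared. Itga2b, at 0.50, lies just past the upper edge of the wider band at 0.48, and the lowest gene is Itgb4 at -0.29.

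By class, all 8 RGD-binding genes were higher in replicate 2 under each of the 7 scalings, with a median of 0.10 on TPM + 1. Of all genes compared, 50.2% to 54.4% were higher under these scalings. The class median lay within the middle 50% of all genes, which ran from -0.10 to 0.13 on TPM + 1. Some of the differences were near 0, such as Itgb6 at 0.001 on counts scaled with TMM factors. Of the laminin-binding genes, 1 of 4 was higher. Beside this, 6 of 6 mesenchyme markers were higher in replicate 2 under each scaling (sums of 3076 and 3481 TPM). So were 3 of 3 markers of interstitial cells of Cajal and 4 of 4 of stratified epithelium under each scaling, and 7 of 7 of skeletal and cardiac muscle on TPM + 1, with 6 by posterior mean TPM. Smooth muscle and endothelium markers were split, with 3 of 6 higher under each scaling. On TPM + 1, 4 of 6 enteric neuron and glia, 3 of 6 platelet and 2 of 4 mesothelium markers were higher. On the same scale, 2 of 6 macrophage, 2 of 6 lymphocyte and 1 of 6 kidney, gonad and adrenal markers were higher. Also on TPM + 1, 5 of 15 non-laminin integrin ligands, 1 of 5 other laminin receptors and 0 of 4 hemidesmosome genes were higher. So were 13 of 27 adaptor and focal adhesion genes and 7 of 13 dystrophin complex genes. Of the dystroglycan enzymes 8 of 12 were higher, and of the other basement membrane genes 11 of 19. Of the 6 neutrophil markers, 5 were lower under each scaling. Of the 8 epithelium markers, 6 were lower on TPM + 1 and 5 under the TMM, DESeq2 and complete-transcript scalings (sums of 3467 and 3335 TPM), and all 5 exocrine pancreas markers were lower. The part of these cells in the differences between pools was not tested.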

How the data were processed

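Total RNA of 2 pools of embryonic intestine was sequenced. The RNA was prepared with mirVana, with ERCC spike-ins added, per the labels' protocols. Per the readme deposited with the files, reads were assigned to mm10 with GENCODE M4. For the aligner, the quantifier and the strand setting, nothing is stated in the sources used here. The authors deposited a gene and a transcript table per library. Per the file headers these hold expected counts (estimated counts that need not be whole), TPM and FPKM, and for transcripts the percent of a gene's TPM on each. The deposited interval bounds for TPM count as a score here and were not used. Entries outside Ensembl genes held 2.16% and 1.76% of counts and were left out.

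Symbols, coordinates and transcript types came from GENCODE M21 by identifier without version. Of 179 member transcripts, 177 had a record there and 165 the same length. A complete coding transcript is a protein-coding one without an incomplete-end tag. Entries without a record in GENCODE M21 were counted as not complete. This scale was chosen after the data were seen. Ratios used a pseudocount of 1 TPM. The arithmetic was tested on simulated data. As alternatives, TMM factors (edgeR 4.0.16) and DESeq2 1.42.0 size factors were computed on rounded counts in R 4.3.3, other steps in Python 3.11.15 with pandas 2.3.3. No test of groups was possible with 1 group. With 2 libraries, an SD is itself imprecise, and the limit of 3 counts was 0.0298 and 0.0246 TPM for a member of median length. The members and lists were chosen with earlier results of these data known. By rule, every member was named, with the 3 highest genes of each pathway list and up to 3 below 1 TPM, and the 2 highest of each marker list and those below 1 TPM. Some genes of these lists are not reported here.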

Additional observations from a re-analysis of the deposited data

How the results depend on the processing

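The count of detected members stayed at 33 when either library was left out, and lay between 29 (TPM of at least 2) and 38 (at least 10 counts) under other limits, with 30 on complete coding transcripts. With a pseudocount of 0.1, 1 member (Itga2b, 0.62) was over 1.5-fold apart, not 0. The median over the members was 6.36 TPM, and 6.72 by posterior mean TPM, 6.90 after rescaling, 10.11 over detected members only, 4.40 in FPKM and 5.345 on complete coding transcripts; leaving out each library gave 6.35 to 6.37. The ratio of γ to α laminin chains was 0.625, 0.748 from counts without length correction and 0.674 on complete coding transcripts (0.616 to 0.635 without each library). The ratio of β to α chains was 1.26, 1.504 from counts and 1.99 on complete transcripts (1.18 to 1.34), and for integrins 1.35, 2.05 on complete transcripts (1.307 to 1.398). Fewer transcripts are counted on the complete scale by construction. That scale and the β to α laminin ratio were added after the data were seen. The log2 ratio of 11 members moved by more than the spread between libraries on counts scaled with TMM factors. On counts scaled with DESeq2 factors, that of 13 members did. Both scales lack the length correction of TPM, and the TMM factors themselves were 1.006 in replicate 1 and 0.994 in replicate 2. The part of the factors alone in these moves was not tested. Of 30 shares of leading transcripts, 17 moved by posterior mean percent and 19 by percent of counts. Of 35 class shares, 29 moved on complete transcripts and 28 by counts. No paired analysis was possible because there was 1 group of samples.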
